A study of Homo sapiens with 104 samples.

Results

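The genes described here are 37 genes of the ATF4 and amino acid response: 7 regulators, 4 stress outputs, 10 enzymes of amino acid synthesis, 5 amino acid transporters and 11 aminoacyl-tRNA synthetases. They are taken by gene name. A gene was measured where the platform annotation gave a probe set its symbol alone, which held for 36 of the 37 genes among 19775 genes in all. MARS1, the methionyl-tRNA synthetase, had no such probe set. All 36 measured genes were among the 13843 genes that passed the filter on low values.

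ATF4 is a transcription factor whose own mRNA is translated better when the initiation factor eIF2 is phosphorylated, for example by the kinase GCN2 when an uncharged tRNA signals that an amino acid is short. It dimerises with C/EBP-family partners and turns on genes that make amino acids, carry them into the cell and load them onto tRNA. It also turns on DDIT3 and the feedback inhibitor TRIB3. In lymphoid cells its target ASNS is known because leukaemic cells that make little of it depend on asparagine from outside.

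Transcripts were measured with Affymetrix arrays of 54675 probe sets in 26 human lymphoblastoid lines, B cells immortalised in culture, with MNNG and untreated, 2 arrays each. MNNG is a methylating agent, and neither its dose nor its time is given in the sources used here. The lines were TK6, an established line; MT1, derived from TK6 and selected for resistance to methylating agents, with a defect in mismatch repair; and a panel of 24 numbered lines of a research collection, all grown to mid log phase. The study asked how expression differs between these lines and how they are killed by MNNG; the killing was not analysed here. The groups are therefore MNNG-treated and untreated TK6, MNNG-treated and untreated MT1, and MNNG-treated and untreated cells of each panel line. As background, TK6 and MT1 are known to lack MGMT, the enzyme that removes the methyl group from guanine, and each is a single line. The duplicates are not said to come from separate cultures, so p-values may measure only technical spread.

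A set of 22 MNNG arrays stood apart. In them a probe set for the spiked-in cre transcript read 5.19 to 6.45 log2 units below a second probe set for it, against a gap of 0.0821 to 0.830 in the opposite direction in the other 82 arrays, and they correlated less with untreated arrays (median r of each array 0.527 to 0.653, against 0.899 to 0.968). They were left out. This took away 21 treated arrays of the panel and 1 of the 2 treated arrays of MT1, so that 19 panel lines kept a MNNG array (8 of them both) and MT1 kept 1, whose spread was assumed to be like that of the other groups. The B-cell markers CD79A, CD79B, CD22, PAX5, CD74 and HLA-DRA lay at 7.43 to 13.3 on the log2 scale (bottom 5) in every group. MS4A1, the CD20 gene, was at 6.88 in MNNG-treated and 6.41 in untreated MT1, against a median of 12.5 over all groups. CD3D, CD3E, CD8A, CD14, CSF1R, the 3 collagen genes, KRT18 and KRT19 lay between 5.13 and 7.37. NKG7 was at 7.91 in MNNG-treated and 9.07 in untreated TK6, and CD2 reached 7.90 in some group. LYZ had a median of 7.55 over all groups and reached 8.27. KRT8 was 9.19 to 10.0 in TK6 and MT1, against a median of 7.54 over all groups. The part of these genes in the results below was not tested.

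In promoters of its targets ATF4 binds, with a C/EBP partner, a composite site close to TGATGNAA. Those letters, read on both strands, were searched in RefSeq promoter windows (GRCh38.p14) that run from 250 bases before to 50 after a gene's start. Of 30 members with a window 12 held the motif (40%), against 4.46% of all 27305 genes with a window. By window, 12 of 47 member windows held it (25.5%), against 3.62% of all 35116. The 4 printed here belong to the members with the motif that had the largest called changes in TK6 in the results below. Capitals mark the motif, the sequence is that of the gene's strand, and positions count from the start of transcription.
ASNS, chr7:97872409-97872508, minus strand, bases -100 to -1: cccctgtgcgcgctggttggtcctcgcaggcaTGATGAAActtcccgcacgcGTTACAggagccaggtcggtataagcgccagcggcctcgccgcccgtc
AARS1, chr16:70289675-70289704, minus strand, bases -198 to -169: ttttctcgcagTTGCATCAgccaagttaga
GARS1, chr7:30594834-30594863, plus strand, bases -44 to -15: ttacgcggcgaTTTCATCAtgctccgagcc
SLC3A2, chr11:62881719-62881748, plus strand, bases 21 to 50: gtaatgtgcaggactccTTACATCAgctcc
In ASNS the motif ran forward at bases -68 to -61, and the second run of capitals, GTTACA, lay 12 bases downstream of it, at -48 to -43. As background, this arrangement is the pair of nutrient-sensing elements known from the ASNS promoter. GTTACA alone occurs in 6.66% of all windows. In AARS1, GARS1 and SLC3A2 the motif was read on the reverse strand, at bases -187 to -180, -33 to -26 and 38 to 45. CEBPG, CHAC1, SLC7A1, MARS1, CARS1, NARS1, IARS1 and TARS1 also held it. CTH, PHGDH, STC2, TRIB3 and SLC7A5, which also fell in TK6, had windows without it. A match describes letters and is not evidence of binding. NUPR1, PSPH, SHMT2, PYCR1, SLC7A11, YARS1 and LARS1 had no entry.

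With MNNG, TK6 lowered most of the group. Of the 36 members 28 fell and 2 rose (limma, adjusted p below 0.05), against 19.5% of all tested genes that fell and 21.6% that rose. A fall of at least 2-fold was seen in 16 members, against 4.09% of all genes. The median change of the members was -0.92 on the log2 scale, against -0.029 for all genes. Levels of single arrays are given below mostly for members chosen by the size of their change. The share of all genes without overlap between conditions was not counted, so a lack of overlap adds no support to a call. In cultures measured in bulk, fewer cells with a transcript and less of it per cell cannot be told apart. All changes are differences of log2(value + 16), which understates the change of genes near the bottom of the scale.

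Among the enzymes of amino acid synthesis 8 of 10 fell in TK6. ASNS, asparagine synthetase, had 8.31 and 8.21 in MNNG-treated TK6, against 11.40 and 11.27 in untreated TK6 (log2 levels of single arrays). CTH, which makes cysteine from cystathionine, had 6.34 and 6.59 with MNNG, against 9.54 and 9.59 untreated. PHGDH, the first enzyme of serine synthesis, had 8.33 and 8.19 with MNNG, against 10.88 and 10.93 untreated. For all 3 genes the MNNG arrays lay far below the untreated ones, with no overlap, and the gap was many times the spread between duplicates. The change was -3.07 ± 0.064 for ASNS (SE; 8.42-fold lower, adjusted p = 1.01e-32), -3.10 ± 0.105 for CTH (8.56-fold lower, adjusted p = 1.48e-25) and -2.64 ± 0.105 for PHGDH (6.24-fold lower, adjusted p = 2.15e-23). Smaller falls were measured for SHMT2, the mitochondrial serine hydroxymethyltransferase (-1.58), PYCR1, the last enzyme of proline synthesis (-1.35), ALDH18A1, which makes the precursor of proline (-1.08), PSAT1, the second enzyme of serine synthesis (-0.77), and MTHFD2 of mitochondrial folate metabolism (-0.37, adjusted p = 0.0255). CBS, which makes cystathionine, and PSPH, the last enzyme of serine synthesis, did not pass the test (-0.27 and -0.10, adjusted p = 0.130 and 0.660).

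The tRNA synthetases followed, with 8 of 10 lower in TK6. AARS1, which loads alanine, had 9.59 and 9.44 in MNNG-treated TK6, against 11.60 and 11.68 in untreated TK6, a change of -2.13 ± 0.0983 (4.36-fold lower, adjusted p = 3.64e-21). GARS1, for glycine, had 9.84 and 9.85 with MNNG, against 11.55 and 11.75 untreated. EPRS1, for glutamate and proline, had 9.32 and 8.76 with MNNG, against 10.21 and 10.31 untreated. The arrays of the 2 conditions did not overlap for any of these 3 genes, and the duplicates of EPRS1 with MNNG were the ones that lay farthest apart. GARS1 changed by -1.81, EPRS1 by -1.22, LARS1 (leucine) by -0.93, IARS1 (isoleucine) by -0.80, YARS1 (tyrosine) by -0.76, CARS1 (cysteine) by -0.71 and TARS1 (threonine) by -0.52. SARS1, for serine, and NARS1, for asparagine, did not pass (0.11 and -0.22, adjusted p = 0.237 and 0.112). SARS1 depended on the probe set: its second, dimmer one was lower with MNNG (-1.32 ± 0.142, adjusted p = 3.65e-10 over single probe sets).

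Of the transporters 4 of 5 fell in TK6. SLC7A5 and SLC3A2, the 2 chains of the large neutral amino acid exchanger, changed by -1.42 and -1.40 (2.68-fold and 2.64-fold lower). SLC7A1, which carries cationic amino acids, changed by -0.90, and SLC7A11, the cystine and glutamate exchanger that also pairs with SLC3A2, by -0.89. SLC38A2, a sodium-coupled neutral amino acid transporter, was at -0.15 and did not pass (adjusted p = 0.128). Its 2 dimmer probe sets were lower with MNNG (-0.41 and -0.39, adjusted p = 0.000244 and 0.00105 over single probe sets).

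The regulators held both directions. The transcript of ATF4 itself was at 11.01 and 11.13 in MNNG-treated TK6, against 12.23 and 12.02 in untreated TK6, without overlap, and fell by 1.06 ± 0.116 (2.08-fold, adjusted p = 4.46e-10). TRIB3, a pseudokinase that inhibits ATF4, had 8.10 and 8.06 with MNNG, against 10.11 and 10.12 untreated (-2.03 ± 0.0854, 4.09-fold lower, adjusted p = 1.56e-22). CEBPG, a dimer partner of ATF4, changed by -1.39, DDIT3, the stress factor CHOP, by -0.95 and CEBPB by -0.35 (adjusted p = 0.00602). ATF5, a close relative of ATF4, was at -0.38 and did not pass (adjusted p = 0.202). NUPR1, a small stress-induced chromatin protein, went the other way, with 8.99 and 6.55 in MNNG-treated TK6, against 5.70 and 6.14 in untreated TK6. The groups did not overlap, but the treated duplicates differed more than the lower of them differed from untreated cells. NUPR1 rose by 1.84 ± 0.310 (3.59-fold, adjusted p = 3.70e-06); without replicate 1 of the MNNG arrays the rise was 0.62 (adjusted p = 0.00381), and without replicate 2 it was 3.07.

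Among the stress outputs of TK6, 3 fell and 1 rose. STC2, a secreted glycoprotein induced by stress, had 6.63 and 6.69 in MNNG-treated TK6, against 9.38 and 9.32 in untreated TK6 (-2.69 ± 0.135, 6.46-fold lower, adjusted p = 4.57e-20). CHAC1, which degrades glutathione, had 6.55 and 6.35 with MNNG, against 7.50 and 7.75 untreated (-1.18). DDIT4, the mTORC1 inhibitor REDD1, had 11.32 and 11.30 with MNNG, against 11.73 and 11.81 untreated (-0.46). None of the 3 overlapped between conditions. SESN2, another mTORC1 inhibitor, which senses leucine and is also a p53 target, had 9.77 and 9.67 in MNNG-treated TK6, against 8.42 and 8.68 in untreated TK6, and rose by 1.17 ± 0.145 (2.25-fold, adjusted p = 8.53e-09). With 1 TK6 array left out at a time, 28 or 29 of these 30 calls were kept, and the calls of MTHFD2 and CEBPB were the ones lost in some of these fits. With the 22 arrays put back 6 members were called.

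**Figure D1:**
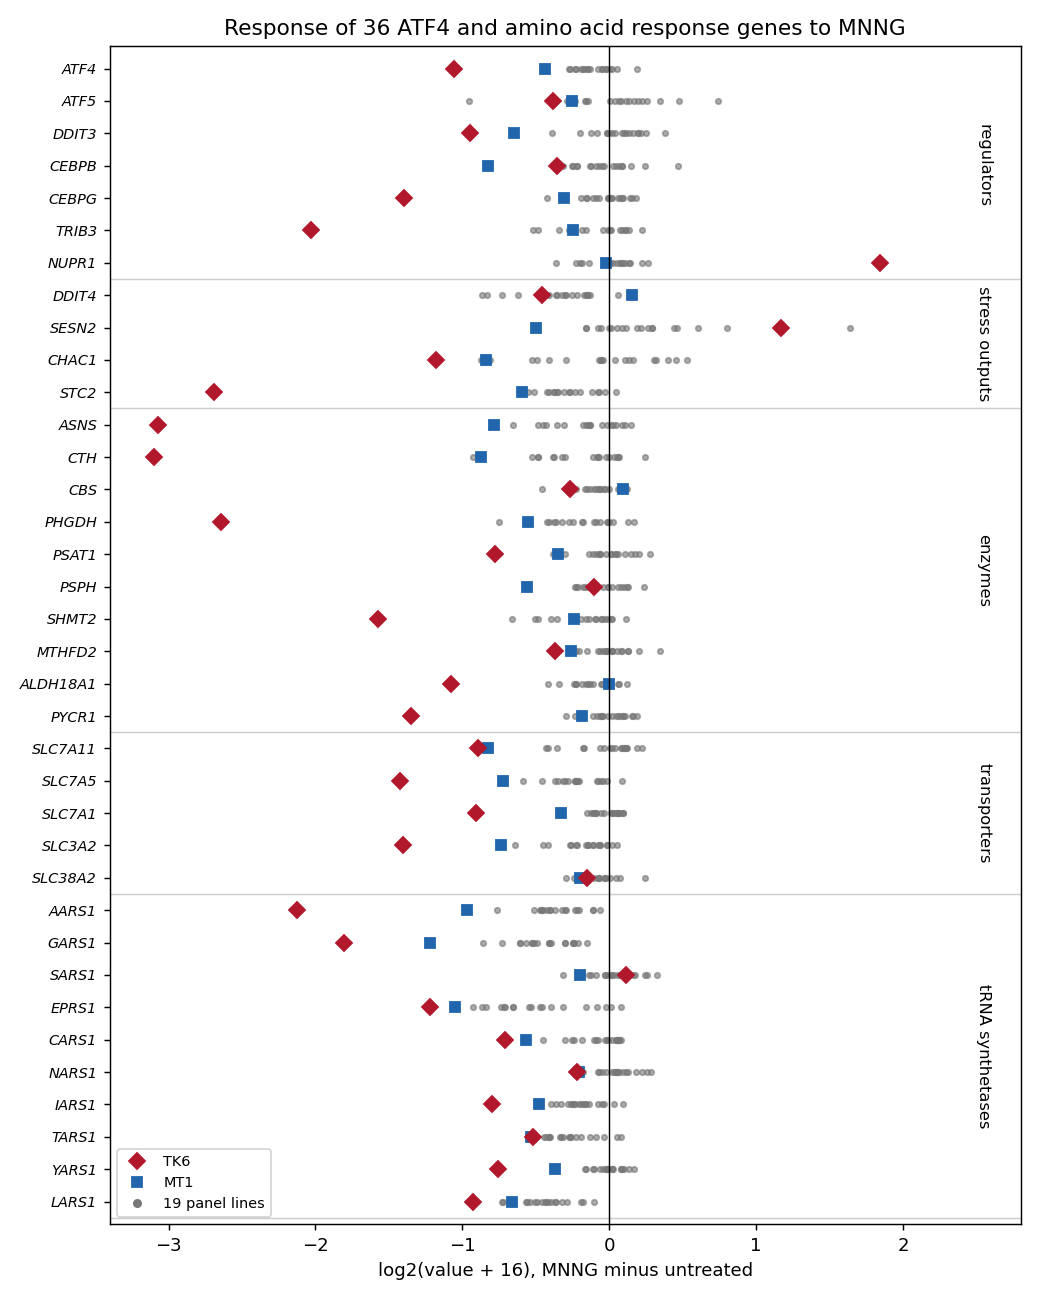
Change with MNNG (MNNG minus untreated, log2 of value plus 16, horizontal axis) of 36 genes in rows grouped by role; red diamonds are TK6, blue squares MT1 and grey points the 19 panel lines. TK6 lies left of every panel line for most genes shown (the share over all genes was not counted), down to -3.10 for CTH. NUPR1 and SESN2 lie to the right of 0 in TK6.

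**Figure D2:**
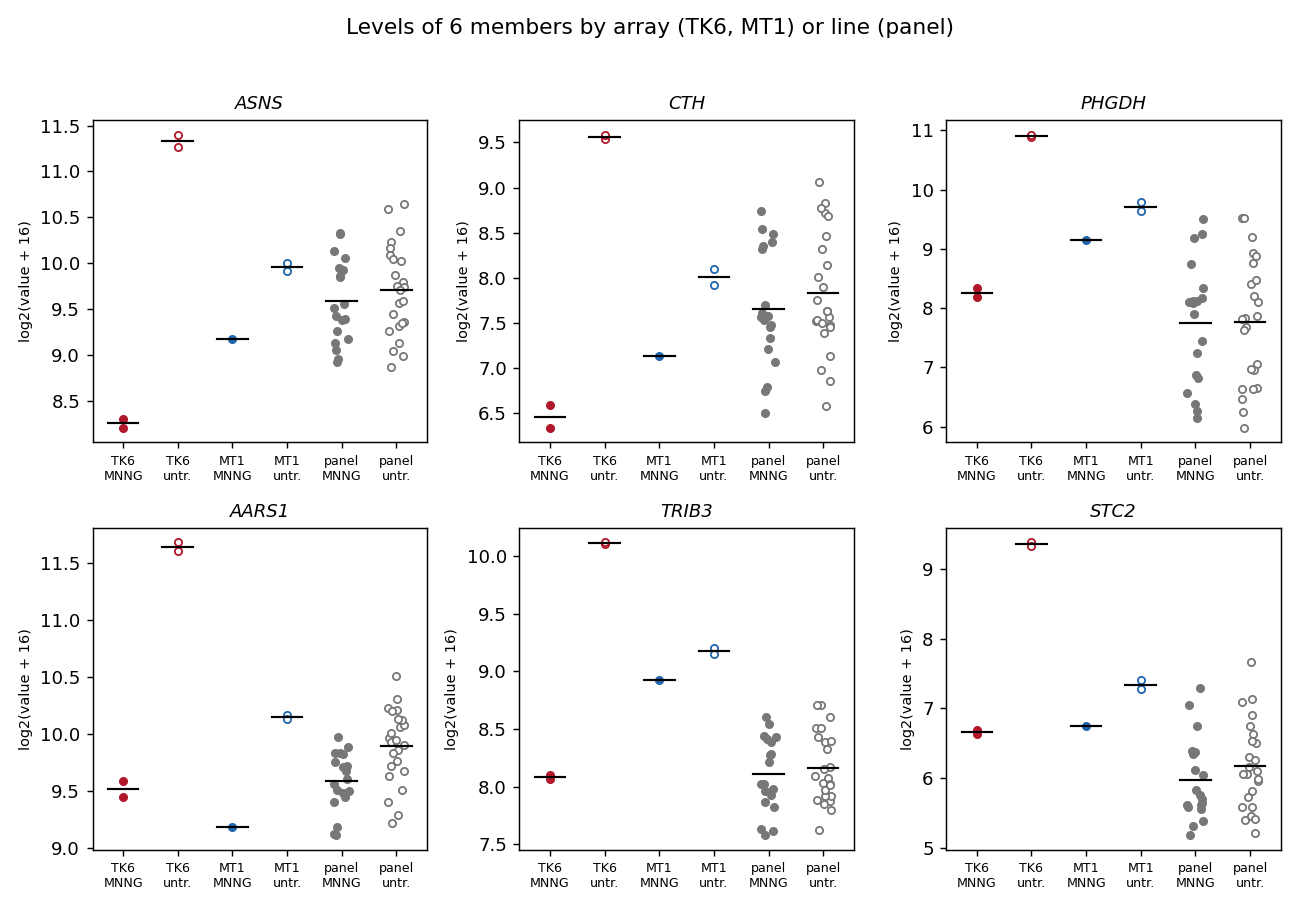
Levels (log2 of value plus 16, vertical axis) of 6 genes in TK6, MT1 and the panel; points are single arrays for TK6 and MT1 and means of a line for the panel, filled with MNNG and open untreated, and bars are means. Untreated TK6 is the highest group for each gene. MNNG-treated TK6 is below the treated panel's range on both arrays for ASNS (8.31 and 8.21). For CTH the lowest treated line is at 6.50, with 1 TK6 array below it (6.34) and 1 within the range (6.59).

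MT1 showed a smaller version of the fall, on thinner data (1 MNNG array). Of 36 members 17 fell and none rose, against 1.21% of all genes that fell and 2.35% that rose. The median of the members was -0.49, against 0.033 for all genes. By role, 7 of 10 tRNA synthetases fell, 3 of 5 transporters, 3 of 10 enzymes, 2 of 4 outputs and 2 of 7 regulators, and 2 members fell at least 2-fold (background 0.0578%).

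The 2 with the largest falls were tRNA synthetases. GARS1 was at 9.86 in MNNG-treated MT1, against 10.97 and 11.19 in untreated MT1 (-1.22 ± 0.226, adjusted p = 0.000942). EPRS1 was at 9.04 with MNNG, against 10.04 and 10.13 untreated (-1.05 ± 0.263, adjusted p = 0.0176), but its call was lost without either untreated array (adjusted p = 0.0597 and 0.0736). AARS1 was at 9.18 with MNNG, against 10.16 and 10.13 untreated (-0.97 ± 0.120, adjusted p = 1.36e-06). In all 3 genes the treated array lay below both untreated arrays, by more than those differed from each other. TARS1 (-0.54), CARS1 (-0.57), IARS1 (-0.48) and YARS1 (-0.37) fell less. Tested as single probe sets, EPRS1, CARS1 and YARS1 were called on some but not all of theirs, and TARS1 on 0 of 2. Among the other members called in MT1, STC2, SLC7A1 and SLC7A11 were likewise called on only part of their probe sets.

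Outside the synthetases, CTH was at 7.13 in MNNG-treated MT1, against 7.92 and 8.09 in untreated MT1 (-0.87 ± 0.128, adjusted p = 4.31e-05). CHAC1 was at 6.50 with MNNG, against 7.26 and 7.42 untreated (-0.84, adjusted p = 0.0109). SLC7A11 was at 7.53 with MNNG, against 8.63 and 8.07 untreated (-0.82, adjusted p = 0.0219). The treated array was the lowest for each, and the 2 untreated arrays of SLC7A11 were themselves 0.56 apart. CEBPB (-0.82), ASNS (-0.79 ± 0.0784, adjusted p = 1.64e-08), SLC3A2 (-0.74), DDIT3 (-0.65), STC2 (-0.59), PHGDH (-0.56) and SLC7A1 (-0.33) also fell.

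ATF4 was at 10.92 in MNNG-treated MT1, against 11.51 and 11.22 in untreated MT1, and did not pass the test (-0.44 ± 0.142, adjusted p = 0.0764). SLC7A5 (-0.72, adjusted p = 0.0842), LARS1 (-0.66, adjusted p = 0.0639), PSPH (-0.56), SESN2 (-0.50, adjusted p = 0.122), PSAT1 (-0.35), CEBPG (-0.31), MTHFD2 (-0.26), ATF5 (-0.25), TRIB3 (-0.25), SHMT2 (-0.24), NARS1 (-0.20), SLC38A2 (-0.20), SARS1 (-0.20) and PYCR1 (-0.19) also missed the threshold. NUPR1 was at -0.023, ALDH18A1 had a change within 0.01 of 0 on its brightest probe set, CBS was at 0.095 and DDIT4 at 0.15. For 3 of these genes dimmer probe sets were called on their own: ALDH18A1 at -0.75 (adjusted p = 0.0165 over single probe sets), SESN2 at -0.99 (adjusted p = 0.000697) and SLC38A2 at -0.51 and -0.44 (adjusted p = 0.00502 and 0.0305). The count fell to 8 without untreated replicate 1 (7 of the 17 calls kept) and to 13 without untreated replicate 2 (12 kept). It was 0 with the 22 arrays put back (7 members at an unadjusted p under 0.05) and 0 in a limma fit without the panel arrays (23 members at an unadjusted p under 0.05).

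The test of the difference between the 2 responses asked which members responded otherwise in TK6 than in its derivative. The change in TK6 was lower than in MT1 for 16 members and higher for 4, against 12.5% and 12.2% of all genes. The median difference was -0.37, against -0.044 for all genes. This comparison shares its arrays with the responses of both lines.

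The widest gap was that of ASNS. Its response was -3.07 in TK6 and -0.79 in MT1, a difference of -2.29 (95% interval -2.49 to -2.08, adjusted p = 7.82e-21). CTH differed by -2.23, STC2 by -2.10, PHGDH by -2.09 and TRIB3 by -1.78, each with an adjusted p of at most 2.43e-10. SHMT2 (-1.33), PYCR1 (-1.16), CEBPG (-1.09) and ALDH18A1 (-1.08) were also lower in TK6. For PYCR1 and ALDH18A1 the levels in MNNG-treated MT1 were 8.31 and 9.45, close to 8.45 and 8.55 for PYCR1 and 9.47 and 9.42 for ALDH18A1 in untreated MT1. The values of ALDH18A1 are those of 1 probe set; on its second one the difference was -0.44 (adjusted p = 0.225 over single probe sets), and with the mean of both it was -0.76. SLC3A2 (-0.66), ATF4 (-0.62), DDIT4 (-0.61), SLC7A1 (-0.57), YARS1 (-0.39) and IARS1 (-0.32) differed less.

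The responses of the tRNA synthetases were nearer to each other in the 2 lines than those of the enzymes, with a median difference of -0.22 against -1.12. Some synthetases still differed, among them YARS1 and IARS1 above. AARS1 differed (-1.16 ± 0.155, adjusted p = 1.50e-07), while the difference was -0.58 (95% interval -1.17 to 0.00613) for GARS1, -0.17 (-0.86 to 0.51) for EPRS1, -0.27 (-0.81 to 0.27) for LARS1 and -0.14 (-0.58 to 0.31) for CARS1. The intervals are wide, and a response lower in TK6 by 0.5 log2 units was within each of them. A higher change in TK6 was found for NUPR1 (1.87 ± 0.489, adjusted p = 0.00338), SESN2 (1.67 ± 0.230, adjusted p = 2.63e-07), CEBPB (0.47) and SARS1 (0.31). SESN2 was at 7.45 in MNNG-treated MT1, against 7.85 and 8.04 in untreated MT1, the other way from TK6. Over the 6 fits that leave out 1 array, 14 to 20 members were called, and 14 to 19 of the 20 calls were kept. The call of SARS1 was lost in each of the 6 (adjusted p = 0.0629 to 0.102), and its value was -0.25 with the mean of all probe sets. The calls of ATF4, CEBPB, IARS1, SLC3A2 and YARS1 were lost in some of the fits, and that of NUPR1 without replicate 1 of the TK6 MNNG arrays (0.65, adjusted p = 0.0560). With the 22 arrays put back 1 member was called.

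The panel gave a shallow fall of part of the group. Over 19 lines 17 members fell and 1 rose, against 13.8% of all genes that fell and 28.7% that rose, and the median was -0.076, against 0.037 for all genes. No member changed 2-fold. By role, 6 of 10 tRNA synthetases fell, 5 of 10 enzymes, 3 of 5 transporters, 1 of 7 regulators and 2 of 4 outputs.

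Synthetases were again in front. GARS1 ranged over 10.07, 10.29 and 10.82 (lowest, median and highest line) with MNNG, against 10.37, 10.84 and 11.29 untreated. LARS1 ranged over 8.64, 9.03 and 9.52 with MNNG, against 9.23, 9.36 and 9.87 untreated. EPRS1 ranged over 8.65, 9.29 and 9.81 with MNNG, against 9.28, 9.72 and 10.06 untreated. The 2 conditions overlapped across lines, but within a line GARS1, LARS1 and AARS1 were lower with MNNG in 19 of 19 lines, and EPRS1 in 17. The change was -0.47 ± 0.0655 for EPRS1 (adjusted p = 4.35e-06), -0.44 ± 0.0405 for GARS1 (3.23e-08), -0.43 ± 0.0372 for LARS1 (2.09e-08) and -0.35 ± 0.0370 for AARS1 (1.74e-07), all adjusted p. The 3 probe sets of EPRS1 spread from -0.82 through -0.47 to -0.078, so the size of its fall is uncertain. TARS1 changed by -0.26 and IARS1 by -0.18.

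DDIT4 ranged over 9.21, 10.52 and 11.43 with MNNG, against 9.42, 10.77 and 11.57 untreated (-0.35 ± 0.0523, adjusted p = 1.01e-05). STC2 ranged over 5.19, 5.76 and 7.29 with MNNG, against 5.40, 6.17 and 7.67 untreated (-0.29 ± 0.0410, adjusted p = 6.08e-06). Both genes fell in 18 of 19 lines although the ranges overlap almost fully. SLC7A5 (-0.22), CTH (-0.20), SHMT2 (-0.19), PHGDH (-0.18), SLC3A2 (-0.17), ASNS (-0.16), ALDH18A1 (-0.11) and SLC38A2 (-0.083) fell by less. ATF4 ranged over 10.69, 11.05 and 11.51 with MNNG, against 10.69, 11.22 and 11.74 untreated, and fell by 0.10 (adjusted p = 0.00504), in 15 of 19 lines. SESN2 rose by 0.26 ± 0.0873 (adjusted p = 0.0172), in 14 of 19 lines. That call rests on 1 probe set of SESN2: the second one was at 0.082 (adjusted p = 0.318 over single probe sets), and with the mean of both the change was 0.17 (adjusted p = 0.0630).

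The 18 members that did not pass lay between -0.11 (TRIB3) and 0.064 (NARS1); CARS1, PSPH, CHAC1, CBS, CEBPB, SLC7A11, CEBPG, SLC7A1, PSAT1, YARS1, PYCR1, NUPR1, MTHFD2, SARS1, ATF5 and DDIT3 were between them. Taken line by line, the median over the 36 members was -0.92 in TK6 and -0.49 in MT1, against -0.33 to 0.021 in the panel, where it was below 0 in 16 of 19 lines. The panel count was 5 with replicate 1 arrays left out (10 lines) and 18 with replicate 2 arrays left out (17 lines), and 6 with lines not kept as a block. With the 22 arrays put back it was 27, of which 8 were rises.

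Scaling moved the zero point of these responses. Without normalization the median over all genes tested reached 0.12 for TK6, 0.31 for MT1 and 0.13 for the panel. With each array centred on its median it was -0.082 for TK6, -0.13 for MT1 and -0.021 for the panel. Relative to that of all genes, the members' median under quantile normalization was -0.89 for TK6, -0.52 for MT1 and -0.11 for the panel. Both other scalings gave -1.03 for TK6, -0.67 for MT1 and -0.21 for the panel. They differ only by a constant for each array, so these values are equal by construction and are not separate evidence. The split of calls was 2 up and 27 down in TK6 as deposited and 2 up and 28 down centred. In MT1 it was 0 up and 3 down as deposited and 0 up and 10 down centred, and in the panel 1 up and 13 down and 0 up and 21 down. For TK6 minus MT1 it was 1 up and 13 down as deposited and 2 up and 8 down centred.

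Set against the spread between panel lines, with 1 response for each line, TK6 lay outside the panel for most members. Its change was lower for 24 of 36 and higher for NUPR1, against 16.4% of all genes that were lower and 15.9% that were higher. The median difference was -0.82, against -0.061 for all genes. ASNS differed by -2.91 (95% interval -3.36 to -2.46, adjusted p = 8.47e-10), CTH by -2.90, PHGDH by -2.46, STC2 by -2.40, TRIB3 by -1.92 and AARS1 by -1.78. These 6 genes had the largest differences, and not one of the 19 lines had as low a response as TK6 for them. The lowest panel value was -0.66 for ASNS and -0.93 for CTH. The share of all genes with TK6 below every line was not counted. The other 18 lower members lay between -1.39 (SHMT2) and -0.38 (MTHFD2). EPRS1 (-0.75, adjusted p = 0.0543), SESN2 (0.91, adjusted p = 0.0807), NARS1, CEBPB, TARS1, CBS, ATF5, SLC38A2, SARS1, DDIT4 and PSPH did not pass. The difference of NUPR1 was 1.84, and without replicate 1 arrays it was 0.41 and did not pass (adjusted p = 0.178). For SESN2, 18 of the 19 lines responded less than TK6 and 1 responded more (1.64). The comparison counted 22 members when only the 5 panel lines low in MGMT were used, and 2 with the 22 arrays put back.

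MT1 was not told apart from the panel for any member. The same limma fit called 0 of 36, with 18 at an unadjusted p under 0.05 (17 lower, 1 higher), and 20 of all genes (0.144%). Members were lower in MT1 than in the panel mean for 33 of 36. The smallest adjusted p was that of GARS1 (-0.78, 0.0922).

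Before treatment TK6 already stood apart. This comparison, made after the data were seen, placed untreated TK6 above all 24 untreated panel lines for 30 of 36 members, against 16.4% of all genes, and above the panel median for 34. Untreated MT1 was above every panel line for 12 members, against 17.8% of all genes, and above the median for 30. In limma's test 22 members were higher in TK6 than in the panel and none was lower (background 7.91% higher and 8.74% lower), with a median of 1.05, against 0.0093 for all genes.

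CBS was at 9.34 and 9.33 in untreated TK6, against 5.39, 5.88 and 8.30 in the panel (lowest, median and highest of 24 lines; 3.30 higher than the panel mean, adjusted p = 0.000279). STC2 was at 9.38 and 9.32 in TK6, against 5.22, 6.08 and 7.67 in the panel (3.17 higher). PHGDH was at 10.88 and 10.93 in TK6, against 5.98, 7.82 and 9.52 in the panel (3.14 higher, adjusted p = 0.0356). TK6 was above the whole panel for each. CEBPB (3.01), DDIT3 (2.32), TRIB3 (1.95), PSAT1 (1.90), SLC3A2 (1.84), AARS1 (1.75), SLC7A5 (1.73), ASNS (1.63) and ATF4 (0.96, adjusted p = 0.0107) were higher too. ALDH18A1 and PSPH lay below the panel mean in TK6 (-0.096 and -0.71) and did not pass.

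With MNNG, TK6 no longer lay above the panel for many of these genes. Its mean level was below every MNNG-treated panel line for 7 members (CEBPG, ASNS, CTH, ALDH18A1, PYCR1, GARS1 and IARS1), against 21% of all genes, so this count is close to the background. For ASNS, 8.31 and 8.21 put MNNG-treated TK6 below all 19 treated lines (lowest 8.92), whereas 11.40 and 11.27 put untreated TK6 above all 24 untreated lines (highest 10.64). CBS, CEBPB, ATF5, DDIT3, SESN2, NUPR1, SLC3A2, SLC38A2, SARS1 and NARS1 lay above every treated panel line in MNNG-treated TK6. The share of all genes above every treated line was not counted, so this list is not read as particular to the members.

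**Figure D3:**
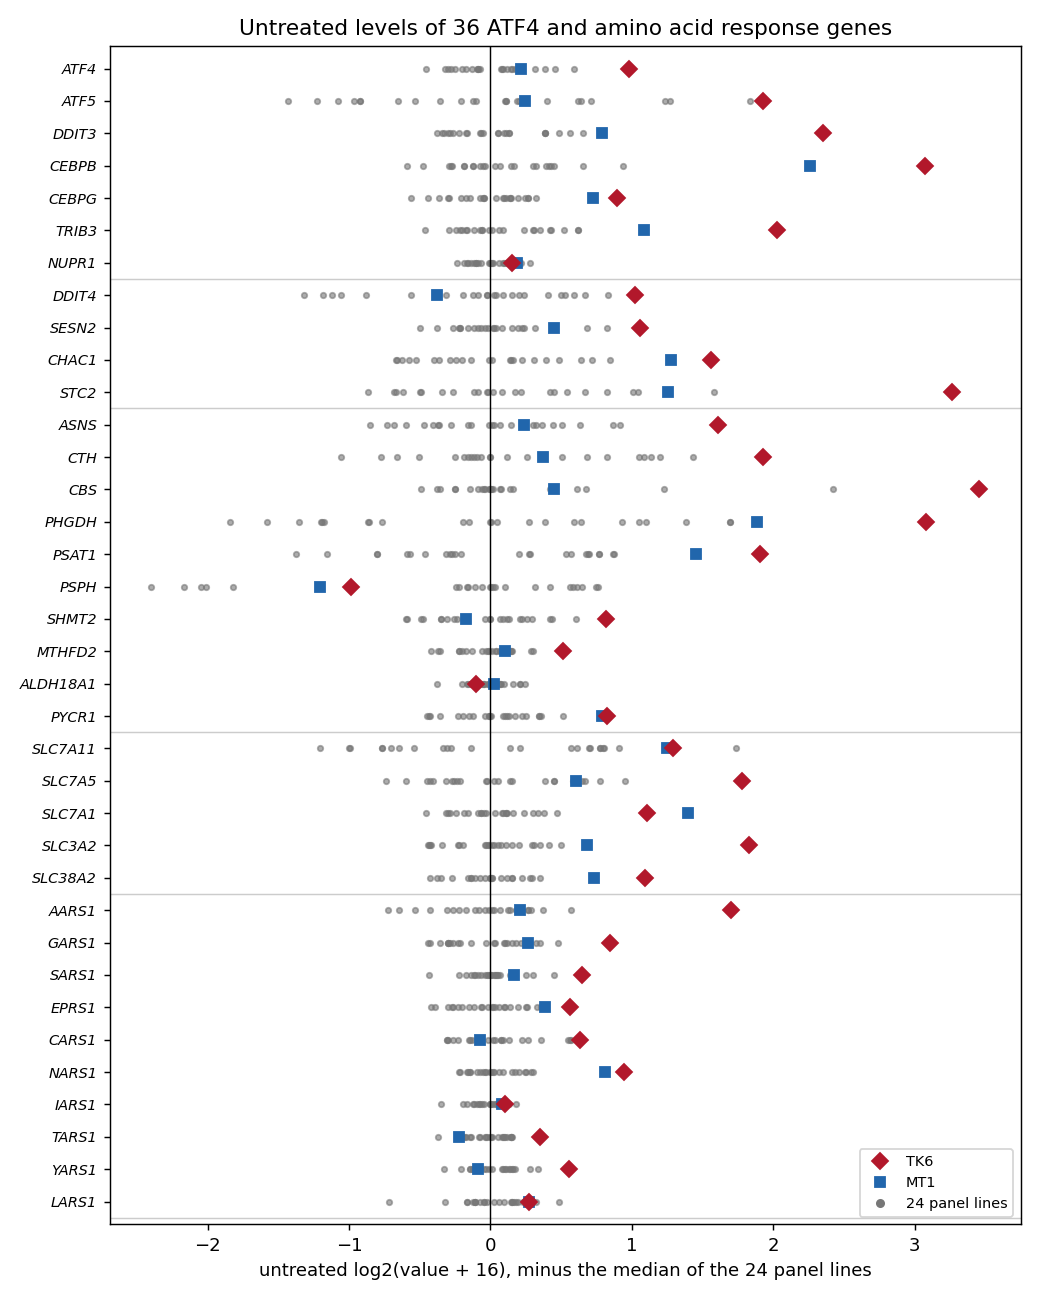
Untreated level of 36 genes relative to the median of the 24 panel lines (log2, horizontal axis); red diamonds are TK6, blue squares MT1 and grey points the panel lines. TK6 lies right of all grey points for 30 genes, and MT1 for 12.

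Untreated MT1 lay below untreated TK6, the line it was derived from, for most of the group. Against untreated TK6 24 members were lower and 1 higher, with a background of 11.7% lower and 13.6% higher, and the median was -0.59, against 0.012 for all genes. CBS was at 6.40 and 6.25 in MT1, against 9.34 and 9.33 in TK6 (-3.01 ± 0.140, 8.05-fold lower, adjusted p = 6.92e-21). STC2 was at 7.40 and 7.28 in MT1, against 9.38 and 9.32 in TK6 (-2.01). ATF4 was at 11.51 and 11.22 in MT1, against 12.23 and 12.02 in TK6 (-0.76, adjusted p = 1.38e-06). MT1 was below TK6 on both arrays for each gene. ATF5 (-1.68), DDIT3 (-1.56), CTH (-1.56), AARS1 (-1.49), DDIT4 (-1.40) and ASNS (-1.37) were lower as well, and SLC7A1 was higher (0.29, adjusted p = 0.00106). For CBS and ATF5 these are values of the brightest probe set, and 2 of 3 tested probe sets of each were called lower. CHAC1, PSPH, EPRS1, CEBPG, NARS1, SLC7A11, PYCR1, IARS1, LARS1, NUPR1 and ALDH18A1 did not pass. Against the panel 6 members were higher in untreated MT1 (background 8.92%): CEBPB (2.19), SLC7A1 (1.39), TRIB3 (1.01), NARS1 (0.79), PYCR1 (0.78) and CEBPG (0.75). None was lower (background 8.94%).

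Panel lines differed from one another in the group, mostly before treatment. The untreated level differed between the 24 lines for 35 of 36 members in limma's F test, all but NUPR1, against 68.1% of all genes. The range between the lowest and the highest line was 11.6-fold for PHGDH, 9.61-fold for ATF5, 8.93-fold for PSPH, 7.66-fold for SLC7A11 and 7.54-fold for CBS, down to 1.43-fold for NUPR1 and NARS1. PSPH fell into 2 sets of lines, 5 at 6.58 to 7.15 and 19 at 8.73 to 9.74, with none between. PSPH has a pseudogene copy in the genome, and whether its probe set reads both was not tested.

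The response to MNNG differed between panel lines for 8 members, against 6.13% of all genes. DDIT4 responded by -0.87 to 0.060 (adjusted p = 1.98e-07), ASNS by -0.66 to 0.15 (1.29e-06) and SESN2 by -0.16 to 1.64 (0.000108). CTH responded by -0.93 to 0.25, TRIB3 by -0.52 to 0.22, CHAC1 by -0.87 to 0.53, SARS1 by -0.32 to 0.33 and PHGDH by -0.75 to 0.17. Line 17 had the lowest response of ASNS, CTH, TRIB3 and CHAC1, and line 4 the highest of SESN2.

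MGMT was at 5.20 in untreated TK6 and 5.27 in untreated MT1, near the bottom of the scale. Among the 19 panel lines a cut at a level of 7 left 5 lines below it and 14 above, at 7.39 to 8.07. The 5 low lines were graded, at 5.12, 5.90, 6.25, 6.41 and 6.77, so the cut does not mark 2 distinct sets. No correlation over all lines is given. The limma slope of the response on the MGMT level was called for 2 of 36 members, against 5.79% of all genes, so the count is close to the background and says nothing particular to the members. SESN2 had -0.44 ± 0.064 per log2 unit of MGMT (adjusted p = 0.000354), and SHMT2 had 0.20 ± 0.037 (adjusted p = 0.00243). The slope of SHMT2 depended on the scaling: with arrays centred on their median it was 0.023 and did not pass (limma, adjusted p = 0.849).

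In the 5 lines low in MGMT, SESN2 responded by 0.67 ± 0.65 (SD), against 0.12 ± 0.17 in the 14 others. SHMT2 responded by -0.43 ± 0.19 in the 5 lines, against -0.10 ± 0.13 in the 14. The 2 sets overlapped for both genes, with SESN2 between -0.16 and 1.64 in the low lines and between -0.16 and 0.44 in the others. Within the 14 lines Pearson's r was -0.57 for SESN2 (permutation p = 0.0326, adjusted p = 0.0653 over 2 relations; Spearman's rho -0.52, p = 0.0628) and 0.39 for SHMT2 (p = 0.170; rho 0.38, p = 0.177). Both genes were chosen by their slope over the 19 lines, which include these 14. The permutation p-values do not allow for that choice, and the cut at 7 was not planned. Both slopes rested on few lines. Without line 4 they were -0.29 (adjusted p = 0.105) and 0.19 (adjusted p = 0.134), and with the 2 lines of most extreme MGMT level left out they were -0.23 (adjusted p = 0.349) and 0.17 (adjusted p = 0.336). Without line 20, 5 members were called.

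**Figure D4:**
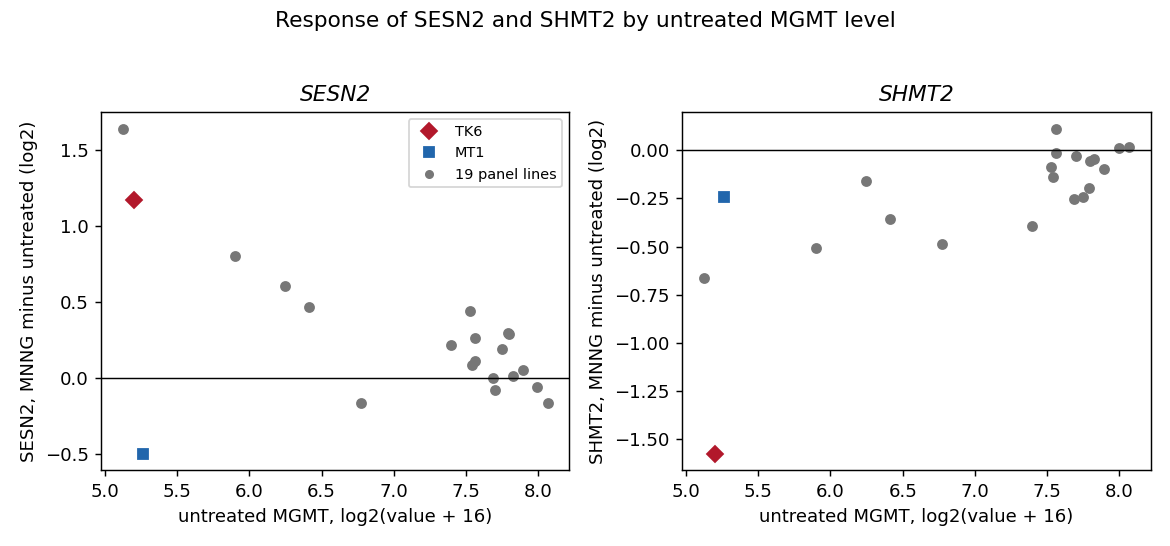
Response of SESN2 (left) and SHMT2 (right) to MNNG (log2, vertical axis) by untreated MGMT level (log2 of value plus 16, horizontal axis); red diamonds are TK6, blue squares MT1 and grey points the 19 panel lines. The lines were cut at a level of 7 into a low set (5.12 to 6.77) and a high set (7.39 to 8.07), and 1 low line has a SESN2 response of 1.64.

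Across the 24 untreated panel lines members varied together. Over the 630 pairs of members Pearson's r had a median of 0.37, and 85.4% were above 0; against other genes the median was -0.0014. Pairs share the same arrays, so these values describe the panel and are not tested. The median was 0.53 among tRNA synthetases, 0.51 among transporters, 0.37 among enzymes, 0.15 among regulators and -0.0099 among outputs. GARS1 and YARS1 had the highest r (0.90), and NUPR1 and SLC38A2 the lowest (-0.55). With ASNS the highest values were those of PSAT1 (0.87), AARS1 (0.85), SHMT2 (0.84) and CTH (0.83).

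**Figure D5:**
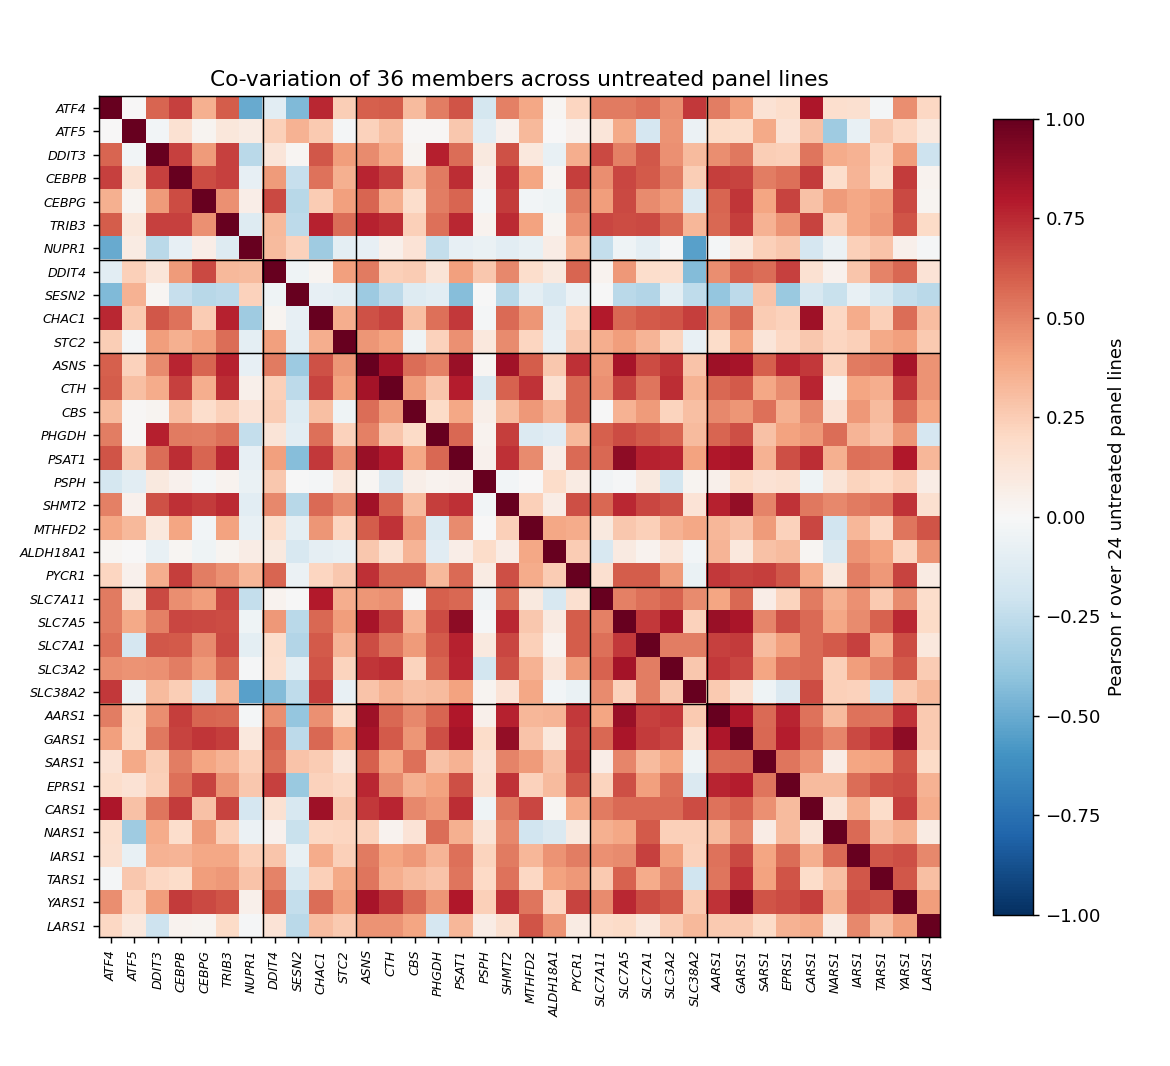
Pearson's r between 36 genes over 24 untreated panel lines, genes in the same order on both axes and grouped by role, red above 0 and blue below. The tRNA synthetases form a block with a median of 0.53, and SESN2, NUPR1 and PSPH are pale or blue in most columns.

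Of the pairs of members, 8 were tested with 100000 permutations, two-sided, with p-values adjusted over the 8. ASNS and PSAT1 (r 0.87, rho 0.89), SLC7A5 and SLC3A2 (r 0.84, rho 0.87) and AARS1 and GARS1 (r 0.81, rho 0.82) reached an adjusted p of 2.67e-05, from 1e-05, the smallest that these permutations can give. DDIT3 and TRIB3 had r 0.68 (rho 0.67, adjusted p = 0.00058 and 0.00122), ATF4 and ASNS r 0.60 (rho 0.60, adjusted p = 0.00291 and 0.00316), and PHGDH and PSAT1 r 0.58 (rho 0.62, adjusted p = 0.00449 and 0.00256). SHMT2 and MTHFD2 (r 0.24, rho 0.31, adjusted p = 0.299 and 0.153) and PSAT1 and PSPH (r 0.046, rho 0.12, adjusted p = 0.834 and 0.580) did not pass. SHMT2 and MTHFD2 passed with arrays centred on their median (r 0.70, rho 0.74, adjusted p = 0.000213 and 0.00018) and when replicate 2 arrays of SHMT2 were set against replicate 1 arrays of MTHFD2 (r 0.46, adjusted p = 0.0285), while the mean of all probe sets gave r -0.084. Without the 2 lines farthest from the median of the first gene the 6 pairs that passed kept an r of 0.51 to 0.86. Within the 19 lines high in PSPH its r with PSAT1 was 0.088 (permutation p = 0.718; rho 0.12, p = 0.637).

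Genes upstream of ATF4 and further targets were read from 3 fixed lists. Their counts are to be read against the shares of all genes: 21.6% rose and 19.5% fell in TK6, 2.35% and 1.21% in MT1, 28.7% and 13.8% in the panel, and 12.2% were higher and 12.5% lower for TK6 minus MT1. Of 8 genes for eIF2 kinases and the eIF2 phosphatase, TK6 raised 2 and lowered 3 with MNNG: EIF2AK4, which encodes GCN2, rose by 1.42 ± 0.186 and EIF2AK2, the kinase PKR, by 0.66, while PPP1R15A, a phosphatase subunit, fell by 1.37. In the panel 3 of the 8 rose and 4 fell, among them EIF2AK4 (-0.26), GCN1 (-0.25), a GCN2 partner, and EIF2AK1 (-0.21), the kinase HRI. In MT1 limma called 0 of the 8 (3 at an unadjusted p under 0.05). The change of EIF2AK4 was higher in TK6 than in MT1 by 1.45 ± 0.294 (adjusted p = 0.000176), and that of PPP1R15B was lower by 0.61.

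Of 17 further ATF4 targets 13 were tested (not GPT2, MTHFD1L, INHBE and FGF21). In TK6 3 rose and 6 fell, led by XPOT, the tRNA exporter (-1.91), GDF15, a stress cytokine that is also a p53 target (1.82), and JDP2 (-1.76). In MT1 2 fell, JDP2 (-0.64) and ATF3 (-0.62). The panel had 1 rise, GDF15 (0.42), and 4 falls, among them VEGFA (-0.34) and SLC1A5, a glutamine transporter (-0.27). TK6 exceeded MT1 for 3 and was below it for 6, with GDF15 at 1.65, XPOT at -1.64 and EIF4EBP1 at -1.39. Of 7 other cytosolic tRNA synthetases that were tested, TK6 raised 3 and lowered 1, with WARS1 (tryptophan, also interferon-induced) at 1.46, HARS1 (histidine) at 0.48 and FARSB (phenylalanine) at -0.85. MT1 had HARS1 at 0.29 and WARS1 at -0.35, and the panel had FARSA at -0.15, HARS1 at 0.14 and FARSB at 0.13. TK6 minus MT1 was 1.81 for WARS1 and -0.86 for FARSB.

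Of 73 probe sets of the members 69 were bright enough to test on their own. In TK6 54 fell and 3 rose (background 18.3% and 17.9% of 28768 probe sets), in MT1 23 fell and none rose (1.44% and 1.51%), and in the panel 35 fell and 1 rose (19.2% and 22.7%). Of 21 genes with several tested probe sets, some but not all of them were called for 3 genes in TK6, 9 in MT1 and 10 in the panel. This held for 6 genes for TK6 minus MT1 and for 6 for untreated MT1 minus TK6. No gene had probe sets called in opposite directions in one comparison.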

How the data were processed

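Biotin-labelled cRNA was hybridised to the arrays. The deposited values are linear intensities made with PLIER, per the submitters' processing notes; its version is not given in the sources used here, and values ran from 16 to 65535. They were taken as log2(value + 16) and quantile normalised over 82 arrays (array medians differed by 1.33). Of 54675 probe sets 41097 had 1 symbol, 1801 several and 11777 none in the platform annotation. A gene (19775 in all) was represented by its brightest probe set on average, and the dimmest 30% of genes were dropped. MNNG arrays whose cre probe sets differed by more than 2 log2 units were left out.

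Tests were those of limma 3.58.1 (R 4.3.3, data.table package, version 1.17.8) with a trended prior and Benjamini-Hochberg adjustment over 13843 genes, called at an adjusted p below 0.05. The panel was fitted on line means with line as a block. TK6, MT1, their difference and the F tests came from 1 model with a mean for each group of arrays. TK6 or MT1 minus panel used 1 response for each line. Correlations used 100000 permutations. The number of arrays limits the precision. The fits were tested on simulated data.

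Values by array are given for ATF4 and the up to 6 called members with the largest change in each main comparison, and other pathway genes are named as the up to 3 called with the largest change per list. The members, lists and comparisons were chosen with earlier results of these data known. Alternatives were other pseudocounts, filters, scalings, probe-set rules and priors, the arrays left out put back, no line block, a replicate block, and leaving out arrays or lines. Sequences are from RefSeq tables (GRCh38.p14). Some genes are not reported here.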

Additional observations from a re-analysis of the deposited data

Results flagged for a closer look

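The following results differ between cell lines by a test of the difference itself. The change with MNNG was lower in TK6 than in MT1 (TK6 minus MT1, log2) for ASNS (-2.29), CTH (-2.23), STC2 (-2.10), PHGDH (-2.09), TRIB3 (-1.78), SHMT2 (-1.33), AARS1 (-1.16), PYCR1 (-1.16), CEBPG (-1.09), ALDH18A1 (-1.08), SLC3A2 (-0.66), ATF4 (-0.62), DDIT4 (-0.61), SLC7A1 (-0.57), YARS1 (-0.39) and IARS1 (-0.32). It was higher in TK6 for NUPR1 (1.87), SESN2 (1.67), CEBPB (0.47) and SARS1 (0.31). MT1 has 1 MNNG array in this test, and NUPR1 passes only with replicate 1 of the TK6 MNNG arrays. SARS1 does not pass in any of the 6 fits that leave out 1 array, and with the mean of all probe sets its difference is -0.25. ALDH18A1 differs by -0.44 on its second probe set, which does not pass (adjusted p = 0.225 over single probe sets).

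The change was lower in TK6 than in the panel (TK6 minus panel, log2) for ASNS (-2.91), CTH (-2.90), PHGDH (-2.46), STC2 (-2.40), TRIB3 (-1.92), AARS1 (-1.78), SHMT2 (-1.39), CEBPG (-1.37), GARS1 (-1.37), PYCR1 (-1.35), SLC3A2 (-1.23), SLC7A5 (-1.20) and CHAC1 (-1.12). Smaller differences were measured for DDIT3 (-1.004), ALDH18A1 (-0.97), ATF4 (-0.96), SLC7A1 (-0.90), SLC7A11 (-0.87), PSAT1 (-0.77), YARS1 (-0.76), CARS1 (-0.64), IARS1 (-0.62), LARS1 (-0.50) and MTHFD2 (-0.38). NUPR1 was higher in TK6 (1.84), but at 0.41 it does not pass without replicate 1 arrays (adjusted p = 0.178). The TK6 arrays are those of the comparison with MT1, so the 2 are not independent.

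Panel lines differed among themselves in the response of 8 members by limma's F test. The adjusted p was 1.98e-07 for DDIT4, 1.29e-06 for ASNS, 0.000108 for SESN2, 0.000342 for CTH, 0.000767 for TRIB3, 0.00136 for CHAC1, 0.00633 for SARS1 and 0.0114 for PHGDH. Groups held too few arrays to look for single arrays far from the rest of their group.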

How the results depend on the processing

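Over the alternatives, single members stayed on their side of the threshold in 497 of 537 cases in TK6, 373 of 465 in MT1 and 1142 of 1221 in the panel. These cases include members not called in the main fit, for which staying uncalled counts as kept. In the panel many of them are fits that leave out 1 line and differ little from the main fit. A call was lost without a change of sign in 33 cases in TK6, 80 in MT1 and 49 in the panel. With the 22 arrays put back the members called were 6 in TK6, 0 in MT1, 1 for TK6 minus MT1, 2 for TK6 minus panel, 2 for untreated MT1 minus TK6, 2 and 7 in the F tests of response and untreated level, and 0 for the MGMT slope (4 at an unadjusted p under 0.05, limma). Values as deposited gave 3 in MT1 and 3 for the response F test, and median-centred arrays 10 in MT1, 10 for TK6 minus MT1 and 2 for the response F test. Without the line block the panel had 6. The TK6 and MT1 arrays alone gave 0 in MT1 and 13 for their difference, and lines with both MNNG arrays 4 in the response F test. Lines low in MGMT gave 9 in the panel. The MGMT slope was called for 0 members in the lines high in MGMT and for 0 without the 2 farthest lines (3 and 4 at an unadjusted p under 0.05, limma).

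Leaving out arrays or lines gave 29 to 30 members in TK6, 8 to 13 in MT1, 14 to 20 for their difference, 22 to 25 for untreated MT1 minus TK6, 20 to 27 for TK6 minus panel, 5 to 19 in the panel (5 without replicate 1) and 0 to 5 for the MGMT slope (0 without replicate 2 or line 4, 1 without replicate 1). With the 22 arrays put back the sign turned in the panel for ALDH18A1 (0.30), CARS1 (0.25), CEBPG (0.47), LARS1 (0.086), MTHFD2 (-1.48), PSAT1 (0.39), SLC38A2 (0.21) and SLC7A11 (0.51), in MT1 for SLC7A1 (0.018), in TK6 minus MT1 for AARS1 (0.48), ATF4 (1.55), DDIT4 (1.95), SARS1 (-0.084) and YARS1 (1.44), and in TK6 minus panel for ATF4 (0.27), IARS1 (1.07), MTHFD2 (1.11) and YARS1 (0.90). With the mean of all probe sets it turned for SARS1 in TK6 (-0.60), TK6 minus MT1 (-0.25) and TK6 minus panel (-0.64), and for TARS1 in TK6 minus MT1 (-0.33). The cause was not tested.

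With the replicate number as a block 20 members were called in the panel, 31 in TK6, 22 in MT1, 20 for TK6 minus MT1 and 25 for untreated MT1 minus TK6. In the 8 panel lines with both MNNG arrays and in TK6, the differences between duplicates were set against each other, treated against untreated. They correlated by -0.62 to 0.14, and the main fits did not pair arrays by number. A batch shared across lines by replicate number was not tested.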
